A study of Arabidopsis thaliana with 24 samples.

Results

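The genes of the Arabidopsis thaliana mitochondrial genome carry identifiers that start with ATMG, and 74 of the 152 such identifiers in the deposited tables had a mean of at least 10 normalized counts over the 12 libraries of at least 1 leaf age. They were taken from 37336 identifiers in all. Of the 74 genes, 73 reached the minimum in emerging leaves, 54 in expanding leaves and 53 in both. ATMG00590 reached it in expanding leaves alone. The other 78 identifiers stayed under the minimum, 26 of them at 0 in all 24 libraries. The 3 genes just inside the minimum were ATMG00630, ATMG00710 and ATMG01260, with highest table means of 11.5, 13.0 and 13.2 normalized counts. The 3 just outside it were ATMG00870, ATMG00120 and ATMG00430, at 9.61, 9.29 and 8.66. The 74 genes held at least 99.8% of all normalized counts on ATMG identifiers in every library.

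The mitochondrial genome of plants encodes a small part of the respiratory chain and of the ATP synthase, some proteins that attach haem to cytochrome c, some ribosomal proteins, and the ribosomal and transfer RNAs of the organelle. The remaining subunits are encoded in the nucleus and imported. In the accession Col-0 a long stretch of mitochondrial DNA was also inserted into chromosome 2, so that many mitochondrial genes have a nearly identical relative in the nucleus. The names used below come from the TAIR10.1 annotation, which notes on nuclear genes which mitochondrial gene they match. This gave a name to 22 of the 74 genes, and the other 52 are given by identifier.

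Libraries came from leaves of gtl1-4, a line in which GTL1, which encodes a trihelix transcription factor, is knocked out, and of Col-0, the accession used as wild type. Plants were under water deficit, with the medium at a water content of 30%, or well-watered, with it at 65 to 100%. Expanding leaves were taken at 14 to 15 days and emerging leaves at 1 day after emergence. This gave 8 groups of 3 libraries, namely gtl1-4 under deficit, Col-0 under deficit, well-watered gtl1-4 and well-watered Col-0 at each leaf age. Plants grew in a chamber with short days, each library pooled 10 plants, gtl1-4 is represented by a single line, and whole leaves were used, with no separation of cell types. Fewer cells of a type and less RNA per cell cannot be told apart in such samples. Because a library is a pool, its p-values reflect how pools vary and not how single plants do.

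Depth was 14.9 to 27.1 M counts in expanding and 14.7 to 43.5 M in emerging leaves, of which 27390 to 68183 and 87864 to 275175 counts lay on ATMG identifiers. Chloroplast genes took 62.2 to 78.6% of counts in expanding and 17.4 to 24.1% in emerging leaves. GTL1 had 123 to 322 normalized counts in gtl1-4 against 421 to 951 in Col-0 in expanding leaves, and 151 to 384 against 954 to 1511 in emerging leaves. Well-watered gtl1-4 replicate 2 of emerging leaves stood apart in nuclear ribosomal RNA, which took 9.10% of its counts outside the chloroplast genes, against 0.0181 to 0.301% in the other 11 libraries of that age. 

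Mitochondrial genes took a smaller share of the library in expanding than in emerging leaves. In expanding leaves the share was 0.227, 0.345 and 0.184% in gtl1-4 under deficit and 0.189, 0.116 and 0.247% in Col-0 under deficit. Well-watered expanding leaves had 0.142, 0.308 and 0.220% in gtl1-4 and 0.215, 0.253 and 0.289% in Col-0. No expanding library reached the lowest emerging one. In emerging leaves the share was 0.677, 0.925 and 0.580% in gtl1-4 under deficit and 0.626, 0.708 and 0.849% in Col-0 under deficit. Well-watered emerging leaves had 0.594, 0.737 and 0.590% in gtl1-4 and 0.613, 0.585 and 0.597% in Col-0. The means were 0.228 ± 0.0664% in expanding and 0.673 ± 0.113% in emerging leaves (SD, n = 12 each), a ratio of 0.338. The leaf ages come in separate tables, and the difference between them is given as a description with no test.

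Much of this ratio depended on what the share was taken of. Outside the chloroplast genes, mitochondrial genes held 0.719 ± 0.151% in expanding and 0.863 ± 0.156% in emerging leaves, a ratio of 0.833, and the ranges of 0.524 to 0.931% and 0.719 to 1.20% overlapped. With the counts of the chromosome 2 insertion added, the shares were 0.552% of all counts in expanding and 1.80% in emerging leaves, a ratio of 0.308. With both changes the ratio was 0.767. For the share of all counts, with its ratio of 0.338, leaving out any 1 library gave ratios of 0.322 to 0.353.

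**Figure D1:**
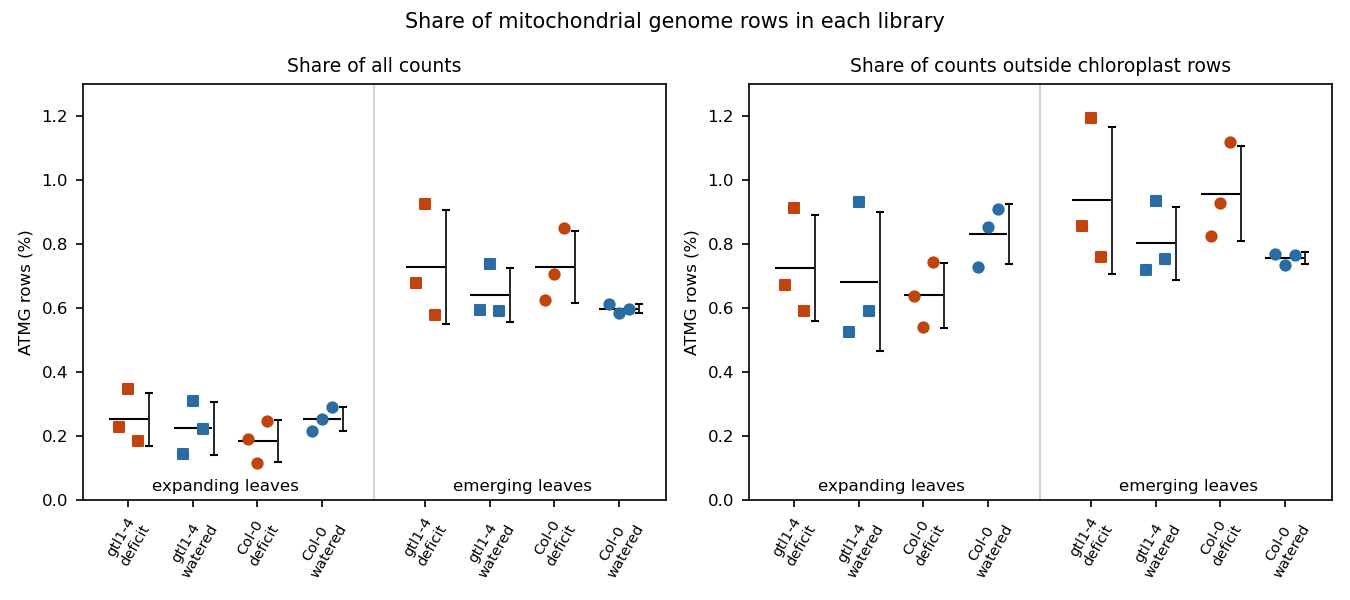
Share of mitochondrial (ATMG) genes in each of the 24 libraries, as a percentage of all counts (left) and of counts outside the chloroplast genes (right). Points are libraries, squares gtl1-4 and circles Col-0, horizontal lines are means and bars are ± SD of 3 libraries. All expanding libraries lie under all emerging libraries on the left, from 0.116 to 0.345% against 0.580 to 0.925%, while the ranges overlap on the right.

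Within a leaf age, the total share did not separate the water supplies or the genotypes beyond the spread between libraries. In expanding leaves it was 0.218 ± 0.0769% under deficit and 0.238 ± 0.0595% when well-watered (SD, n = 6 each). The mean difference was -0.16 on the log2 scale (p 0.575, adjusted p 0.785, exact two-sided permutation test with labels permuted within genotype). In emerging leaves it was 0.728 ± 0.133% under deficit and 0.619 ± 0.0586% when well-watered, a difference of 0.22 (p 0.13, adjusted p 0.52, same exact test). The mean under deficit was the higher one in both genotypes there, and 3 of the 6 deficit libraries lay within the well-watered range of 0.585 to 0.737%. Without well-watered gtl1-4 replicate 2, the library high in nuclear ribosomal RNA, the difference was 0.27 (p 0.055, adjusted p 0.22, same exact test).

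Between genotypes the total share was 0.238 ± 0.0760% in gtl1-4 and 0.218 ± 0.0606% in Col-0 in expanding leaves, a difference of 0.12 (p 0.70, adjusted p 0.785, exact permutation test with labels permuted within water supply). In emerging leaves it was 0.684 ± 0.133% in gtl1-4 and 0.663 ± 0.101% in Col-0, a difference of 0.04 (p 0.785, adjusted p 0.785, same exact test). The tests had 400 arrangements and a smallest possible p of 0.005, and p-values were adjusted over the 4 comparisons. A difference that misses the threshold is not shown to be absent, and the direction of both genotype differences turned under other settings given in the closing section.

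A few genes held most of the mitochondrial total. The 12 highest took 76.5% of it in expanding leaves (72.3 to 82.0% over libraries) and 71.8% in emerging leaves (64.5 to 76.9%). It took 6 genes to make 50% of the mean total in expanding and 7 in emerging leaves, and 20 and 21 genes to make 90%. At the other end, 32 of the 74 genes held under 0.1% each at either age. These are shares of counts and not of transcripts, because lengths of ATMG genes were not used here and a longer gene gives more reads.

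ATMG01360 was the highest gene at both ages, with a share of 17.8 ± 2.22% (14.7 to 23.2%) in expanding and 16.1 ± 2.21% (12.1 to 18.8%) in emerging leaves (SD, n = 12). It led in 11 of 12 libraries at each age, and ATMG00020 led in the remaining ones, namely well-watered Col-0 replicate 2 of expanding leaves and gtl1-4 deficit replicate 2 of emerging leaves. ATMG00410, named ATPase subunit 6-1 and part of the proton channel of the ATP synthase, held 7.95 ± 1.18% in expanding and 7.23 ± 0.755% in emerging leaves. ATMG01190, ATP synthase subunit 1, held 4.04 ± 1.37% and 4.62 ± 1.60% at these ages. ATMG01320, NADH dehydrogenase 2B of respiratory complex I, held 3.63 ± 0.321% and 3.33 ± 0.247%. Among the 12 highest genes of each age, ATMG01320 varied least over libraries, with coefficients of variation of 8.85 and 7.41%.

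The other genes among the 12 highest at both ages were ATMG00060, ATMG00090, ATMG00160, ATMG00580, ATMG01170 and ATMG01390, with mean shares of 3.65 to 8.29% in expanding and 4.08 to 6.17% in emerging leaves. ATMG00510 was among them in expanding leaves alone and ATMG00070 in emerging leaves alone. Of the 11 genes shared by both lists, 3 have a name in the reference.

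**Figure D2:**
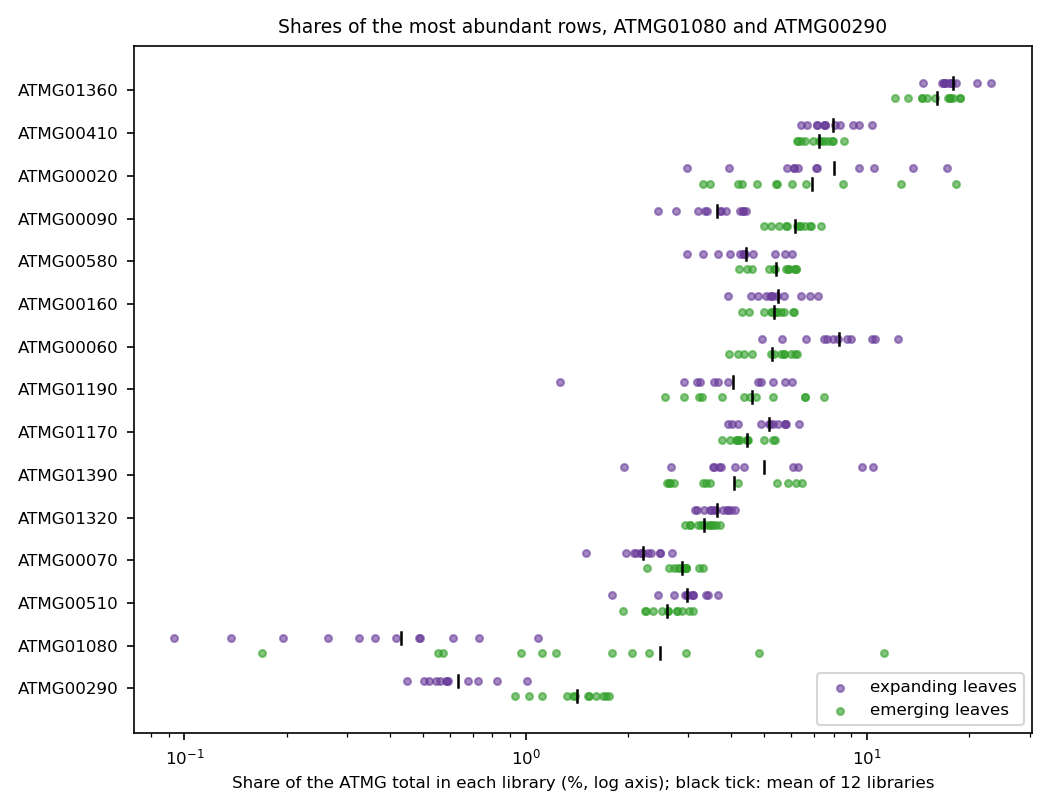
Share of the mitochondrial total (percent, log axis) of the most abundant genes and of ATMG01080 and ATMG00290, by library. Purple points are the 12 expanding and green points the 12 emerging libraries, and black ticks are means. ATMG01360 lies highest on average at both ages, ATMG00020 and ATMG01080 spread widely, and ATMG00090 lies lower in every expanding library than in any emerging one.

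ATMG00020 and ATMG01390 varied most among these genes. In expanding leaves the share of ATMG00020 was 10.5, 6.13 and 5.84% in gtl1-4 under deficit, 3.94, 2.97 and 9.46% in Col-0 under deficit, 7.10, 13.6 and 7.13% in well-watered gtl1-4, and 6.12, 17.2 and 6.28% in well-watered Col-0. In emerging leaves it was 6.65, 18.2 and 3.48% in gtl1-4 under deficit, 4.78, 5.44 and 6.02% in Col-0 under deficit, 4.31, 12.6 and 3.32% in well-watered gtl1-4, and 8.52, 5.43 and 4.19% in well-watered Col-0. The high libraries were single ones within their groups, and no group stood apart. The highest values, 17.2 and 13.6% in expanding and 18.2 and 12.6% in emerging leaves, were all in replicate 2 of their groups. Whether they share a source was not tested. The coefficient of variation of ATMG00020 was 50.8% in expanding and 63.4% in emerging leaves, and that of ATMG01390 53.0 and 36.9%. ATMG00020, ATMG01380 and ATMG01390 together made 24.7% of the mitochondrial total in gtl1-4 deficit replicate 2 and 18.5% in well-watered gtl1-4 replicate 2 of emerging leaves, and 6.04 to 14.7% in the other libraries of that age. The second of these libraries is the one with 9.10% nuclear ribosomal RNA, and the part of nuclear ribosomal RNA in these values was not tested.

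By the names in the reference, the 5 genes named for the ATP synthase made 15.1 ± 1.87% of the mitochondrial total in expanding and 17.5 ± 2.26% in emerging leaves (SD, n = 12 each). The 3 genes named for the NADH dehydrogenase, which passes electrons from NADH into the respiratory chain, made 4.18 ± 0.454% and 4.10 ± 0.347%. The 4 genes whose names refer to cytochrome b or cytochrome c oxidase, later electron carriers of the chain, made 3.18 ± 0.519% and 3.27 ± 0.433%. They were ATMG00220, ATMG00590, ATMG00730 and ATMG01280. The relative of ATMG00590 aligned where the reference lists the mitochondrial gene nad4, and ATMG00590 was at 0 in all emerging libraries. No mitochondrial gene was listed where the relative of ATMG01280 aligned. Neither is identified here as such a carrier. The 3 genes named for cytochrome c biogenesis made 0.987 ± 0.308% and 1.24 ± 0.179%. The 4 genes named as ribosomal or nucleic acid-binding proteins made 2.28 ± 0.478% in expanding and 3.64 ± 0.313% in emerging leaves, with ranges of 1.51 to 3.09% and 3.01 to 3.97% that barely overlapped. The 52 genes without a name made 74.1 ± 2.08% and 70.0 ± 2.67%. A gene has a name here only if a nuclear relative is noted for it. Genes without a name can belong to the same complexes, so these sums are not totals of each complex.

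Between leaf ages, most single genes kept overlapping shares of the mitochondrial total. Of the 53 genes measured at both ages, 22 had a higher and 31 a lower mean share in expanding leaves, with a median ratio of expanding over emerging of 0.876. ATMG00090 was the only gene whose ranges did not overlap, at 2.44 to 4.42% in expanding and 4.99 to 7.35% in emerging leaves, a ratio of 0.592. ATMG00290, mitochondrial ribosomal protein S4 of the small ribosomal subunit, had 0.632 ± 0.158% in expanding and 1.42 ± 0.275% in emerging leaves, a ratio of 0.446. It was lower in every expanding library than in any emerging library of the same genotype and water supply, and ATMG00090 was the only other gene of which this held. These are descriptions with no test, and how many of all genes were apart in this way is not given here.

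In expanding leaves of gtl1-4 under deficit, ATMG00290 held 0.591, 0.825 and 0.679%, and in Col-0 under deficit 0.587, 0.548 and 0.583%. Well-watered expanding leaves had 0.504, 0.562 and 0.522% in gtl1-4 and 1.01, 0.449 and 0.724% in Col-0. In emerging leaves the shares were 1.72, 1.38 and 1.12% in gtl1-4 under deficit and 1.69, 1.75 and 1.52% in Col-0 under deficit. Well-watered emerging leaves had 1.03, 0.934 and 1.54% in gtl1-4 and 1.61, 1.40 and 1.32% in Col-0. The highest expanding library and the lowest emerging library cross, but they belong to different groups.

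Reads of many mitochondrial genes cannot be told from those of their chromosome 2 relatives. The reference notes tie 34 nuclear genes to 33 of the 74 mitochondrial genes. All 34 aligned over more than 95% of their length to the mitochondrial sequence of TAIR10.1 (blastn), with identities of 99.0 to 100% (median 99.9%), 15 of them without a mismatch. Together they had 0.896 to 2.01 times the mitochondrial total in expanding leaves (median 1.22) and 1.08 to 1.83 times in emerging leaves (median 1.55). RSEM, named in the submitters' processing notes, divides reads that fit several places, so a value for one member of such a pair rests on that division.

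The percentage of a pair that was counted on the mitochondrial gene varied from library to library. Whether this came from the division of reads or from transcript levels was not tested. In emerging leaves the sum of a pair varied less over libraries than its mitochondrial gene alone in 28 of 33 pairs, with median coefficients of variation of 23.9% for the sum and 44.3% for the mitochondrial gene. In expanding leaves this was so in 20 of 24 pairs, with 29.1 and 48.6%. The nuclear gene had the higher mean in 14 of 33 pairs in emerging and in 8 of 24 pairs in expanding leaves. Some rows carried identical values in all 12 libraries of an age, among them ATMG00480, an ATP synthase subunit, and AT2G07707 in expanding leaves, and ATMG00900, for cytochrome c biogenesis, and AT2G07771 in emerging leaves. ATMG00170 and ATMG00620 were identical to each other at both ages.

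**Figure D3:**
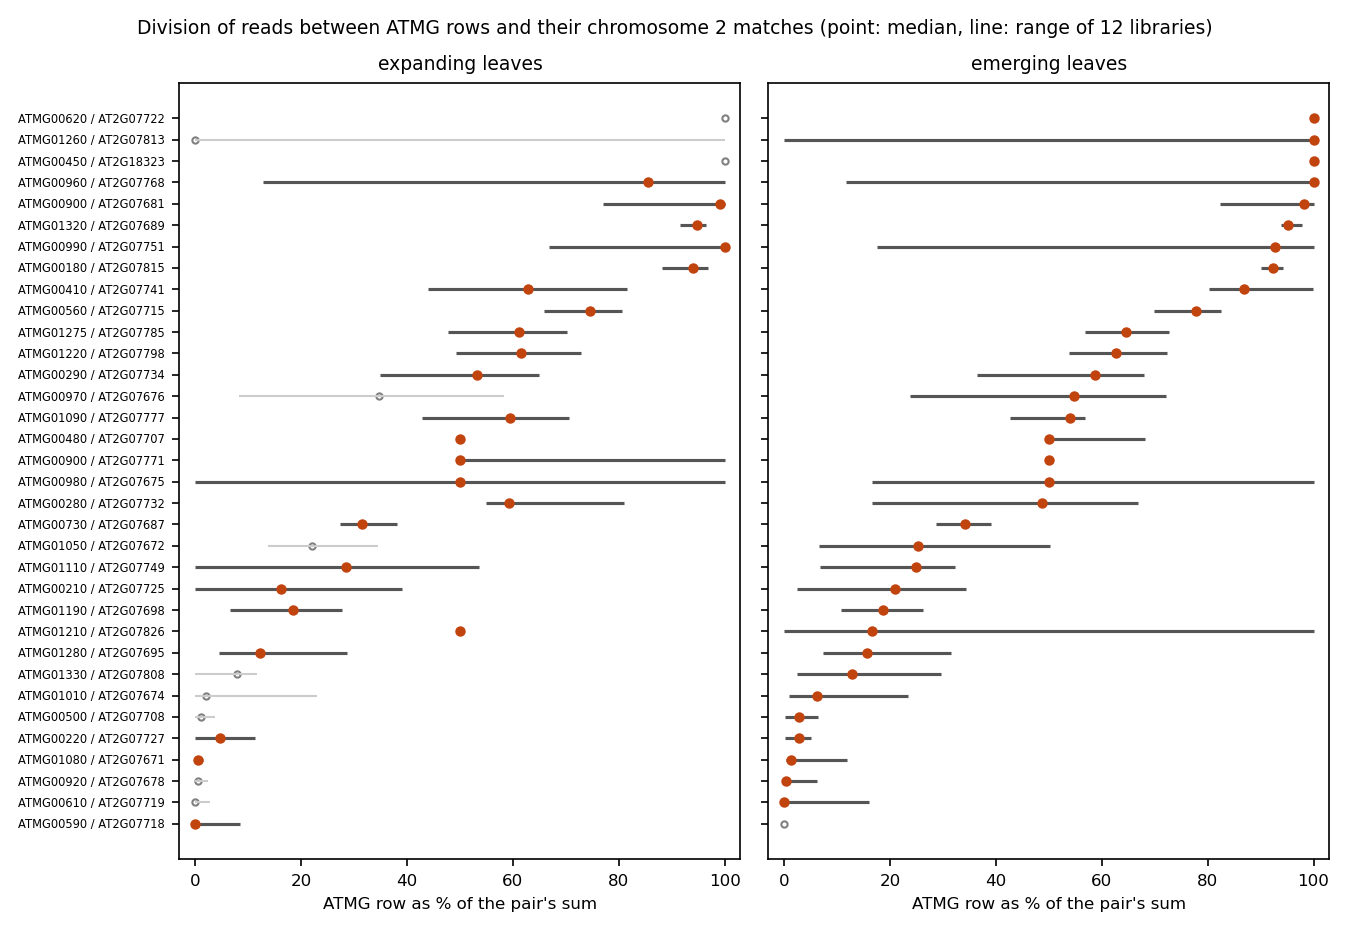
Mitochondrial gene as a percentage of the summed normalized counts of the pair it forms with its chromosome 2 relative, for 34 pairs in expanding (left) and emerging (right) leaves. Points are medians and lines the range of 12 libraries, and open grey points mark pairs whose mitochondrial gene had a mean under 10. Pairs run from near 0% (ATMG01080 with AT2G07671) to near 100%, and in several the range covers most of the axis.

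Summing the pairs changed which genes ranked highest. ATMG01080, mitochondrial F0-ATPase subunit 9, a part of the rotor ring of the ATP synthase, had a mean of 189.6 normalized counts in expanding and 4724 in emerging leaves. Its relative AT2G07671 had 30769 and 165704. Alone the gene was 29th in expanding and 16th in emerging leaves. Summed with AT2G07671 it was 1st at both ages, with 30.6 ± 8.40% of the total of mitochondrial genes and their relatives in expanding and 38.5 ± 6.09% in emerging leaves. ATMG00220, apocytochrome b of respiratory complex III, was 23rd and 32nd alone and 4th at both ages when summed with AT2G07727, and ATMG01190 with AT2G07698 was 2nd at both. ATMG01360, which has no such relative in the notes, was then 3rd.

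On the summed scale the ranges of ATMG00090 overlapped, at 1.28 to 2.09% in expanding and 1.92 to 3.28% in emerging leaves. Within each genotype and water supply it was still lower in every expanding library. On this scale ATMG00410 and ATMG00060 were the genes with a higher share in every expanding than in any emerging library. ATMG00410 with its relative had 5.60% in expanding and 3.37% in emerging leaves, a ratio of 1.66, and ATMG00060, which has no relative in the notes, had 3.61% and 2.12%, a ratio of 1.70. Of the mitochondrial total alone, ATMG00060 overlapped, at 4.92 to 12.3% and 3.95 to 6.26%, so for this gene only the total differs between the scales. With relatives summed, ATMG00290 was lower without overlap, at 0.538 and 1.02%, a ratio of 0.525. The median ratio over the 53 genes was 0.967 on this scale.

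Water deficit shifted the shares of 11 of 73 mitochondrial genes within their own total in emerging leaves, 6 to higher and 5 to lower shares, and of none of 54 in expanding leaves. Without well-watered gtl1-4 replicate 2 the number in emerging leaves was 14. For this test every gene of the table was divided by the mitochondrial total of its library and fitted with limma, and the water supplies were compared over both genotypes with adjustment over all genes (adjusted p under 0.05). The 11 genes are 15.1% of the 73, against 13% of all 18529 genes in the same fit (2.37% higher and 10.6% lower), so the number called is near that share. Every gene was divided by the mitochondrial total, and the median log2 difference was -0.22 over all genes against 0.00074 over the 73. The 13% thus also holds the shift of that total and is not a like-for-like background. The spread that limma shared between genes came from the same divided values. The 6 that rose were ATMG00280, ATMG01080, ATMG01120, ATMG00980, ATMG00990 and ATMG00516. The 5 that fell were ATMG01110, ATMG01280, ATMG00670, ATMG00110 and ATMG00690. By name they were 1 of 5 named for the ATP synthase, 1 of 3 for the NADH dehydrogenase, 1 of 3 for cytochrome b or cytochrome c oxidase, 1 of 4 ribosomal, none of 3 named for cytochrome c biogenesis, 2 of 3 with other names and 5 of 52 without a name. The 1 for cytochrome b or cytochrome c oxidase was ATMG01280, which is not identified here as a subunit of the oxidase. Genes without a name can belong to the same classes, so these are not counts for whole complexes.

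**Figure D4:**
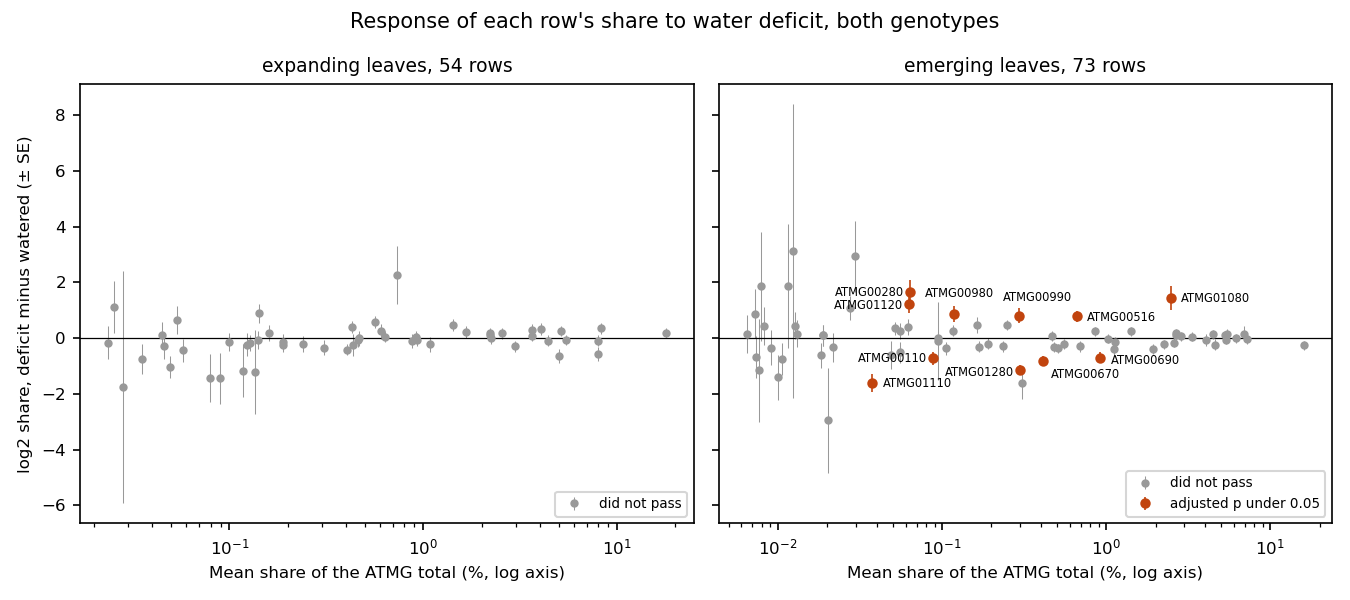
Log2 difference in share of the mitochondrial total, deficit minus well-watered over both genotypes (± SE), against the mean share (percent, log axis), for 54 genes in expanding (left) and 73 in emerging leaves (right). Orange points passed an adjusted p of 0.05 and grey points did not. The 11 that passed are all in emerging leaves, and 10 of them hold under 2% of the total.

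ATMG01280 takes its name, a transmembrane domain like that of cytochrome c oxidase subunit II, from the note on its relative AT2G07695. No annotated mitochondrial gene was listed where AT2G07695 aligned. The name is therefore given as a resemblance, and ATMG01280 is not identified here as a subunit of the oxidase. ATMG01280 held 0.180, 0.136 and 0.285% in gtl1-4 under deficit and 0.220, 0.158 and 0.166% in Col-0 under deficit. It held 0.425, 0.423 and 0.381% in well-watered gtl1-4 and 0.379, 0.427 and 0.423% in well-watered Col-0. Every deficit library lay under every well-watered library. The log2 difference was -1.14 (SE 0.19, adjusted p 3.68e-05), and it passed in all 12 fits without 1 library.

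ATMG01280 is the smaller member of a pair with AT2G07695, which had 3437 ± 895 normalized counts under deficit and 2629 ± 487 when well-watered (SD, n = 6 each), and did not pass in either genotype (log2 fold change 0.39, adjusted p 0.268 in gtl1-4, and 0.35, adjusted p 0.304 in Col-0). ATMG01280 made 7.28 to 15.6% of the pair under deficit and 15.6 to 31.6% when well-watered. The pair's sum was 3798 ± 882 under deficit and 3318 ± 408 when well-watered, and its share differed by 0.071 (adjusted p 0.713). At these percentages the sum follows AT2G07695 and can hardly show a fall of ATMG01280. Whether the fall of ATMG01280 came from the division of reads or from transcript levels was not tested.

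ATMG01110, whose relative AT2G07749 is noted as matching a mitovirus RNA-dependent RNA polymerase, a kind of sequence that plants took up from mitochondrial viruses, held 0.0206, 0.00650 and 0.0170% in gtl1-4 under deficit and 0.0304, 0.0130 and 0.0341% in Col-0 under deficit. It held 0.0513, 0.0511 and 0.0548% in well-watered gtl1-4 and 0.0597, 0.0611 and 0.0510% in well-watered Col-0. The ranges did not overlap. Its share fell by 1.62 (SE 0.33, adjusted p 0.000765), and the share of its sum with AT2G07749 fell by 0.79 (adjusted p 0.000525), a sum of which ATMG01110 made 18.4% under deficit and 26.3% when well-watered. This sum too is mostly AT2G07749, and how much of its fall came from ATMG01110 was not tested. The counts of ATMG01110 were low, at 17.9 to 115 per library, and its call held in every alternative tried.

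ATMG00670, which has neither a name nor a relative in the notes, held 0.250, 0.210 and 0.400% in gtl1-4 under deficit and 0.333, 0.277 and 0.339% in Col-0 under deficit. It held 0.594, 0.408 and 0.503% in well-watered gtl1-4 and 0.539, 0.519 and 0.578% in well-watered Col-0. The highest deficit library lay under the lowest well-watered one. Its share fell by 0.82 (SE 0.18, adjusted p 0.00196), a call that held in every alternative, with adjusted p up to 0.0203.

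ATMG00690, also without a name, fell by 0.70 (SE 0.18, adjusted p 0.00880), with 0.704 ± 0.177% under deficit and 1.14 ± 0.234% when well-watered (SD, n = 6 each). All deficit libraries of Col-0 lay under all its well-watered ones, while the ranges overlapped in gtl1-4. ATMG00110 fell by 0.72 (SE 0.24, adjusted p 0.0408), with 0.0669 ± 0.0193% and 0.109 ± 0.0273%. That call was lost in 9 of 12 fits without 1 library, those without any Col-0 library, well-watered gtl1-4 replicate 1 or 3 or gtl1-4 deficit replicate 2, with adjusted p up to 0.136.

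Of the genes that rose, ATMG01080 held the highest share. Its share was 4.82, 2.95 and 0.967% in gtl1-4 under deficit and 0.555, 11.2 and 2.31% in Col-0 under deficit. It was 0.574, 0.169 and 1.80% in well-watered gtl1-4 and 2.05, 1.12 and 1.23% in well-watered Col-0. Single libraries of each water supply crossed, and Col-0 deficit replicate 2 was far above the rest. The log2 difference was 1.44 (SE 0.43, adjusted p 0.0219), which was lost without Col-0 deficit replicate 2 or 3, with adjusted p up to 0.0946.

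ATMG01080 is a small part of the pair with its relative. The gene had 7583 ± 7572 normalized counts under deficit and 1865 ± 1130 when well-watered, and AT2G07671 had 161154 ± 13879 and 170255 ± 33307 (SD, n = 6 each). The gene made 4.29% of the pair under deficit and 1.01% when well-watered, and the pair's share differed by -0.11 (adjusted p 0.698). The sum is thus nearly all AT2G07671 and cannot show a change of ATMG01080. Whether that change came from the division of reads or from transcript levels was not tested.

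ATMG00280, whose relative is noted as holding a Rubisco large chain domain, a chloroplast protein, had 0.0989 ± 0.0664% under deficit and 0.0292 ± 0.0155% when well-watered (log2 difference 1.65, SE 0.43, adjusted p 0.00898). ATMG01120 had 0.0882 ± 0.0435% and 0.0378 ± 0.0158% (1.22, SE 0.32, adjusted p 0.00948). ATMG00516 had 0.831 ± 0.237% and 0.489 ± 0.144% (0.78, SE 0.20, adjusted p 0.00846). These calls were kept in all 12 fits without 1 library, although the deficit and well-watered libraries of each gene overlapped. With no variance trend all 3 were lost (adjusted p 0.128, 0.0870 and 0.0833), and with no filter on low values ATMG00280 (0.0857) and ATMG01120 (0.0674) were lost. Of the 11 calls, those of ATMG00670, ATMG01110 and ATMG01280 were kept with no variance trend.

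ATMG00980, named for ribosomal protein S12/S23, had 0.148 ± 0.0546% under deficit and 0.0896 ± 0.0534% when well-watered (0.87, SE 0.29, adjusted p 0.0417). ATMG00990, NADH dehydrogenase 3 of complex I, had 0.362 ± 0.126% and 0.231 ± 0.120% (0.81, SE 0.27, adjusted p 0.0429). Both calls were lost without well-watered Col-0 replicate 1, well-watered gtl1-4 replicate 1, any Col-0 deficit replicate or gtl1-4 deficit replicate 2. ATMG00980 was also lost without well-watered Col-0 replicate 3, with adjusted p up to 0.250, and ATMG00990 without gtl1-4 deficit replicate 3, with adjusted p up to 0.229.

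With every mitochondrial gene summed with its relatives, 14 of the 73 genes passed, and 9 of the 11 above were among them, all but ATMG01080 and ATMG01280. Only 6 of the 11 have a relative, and of these ATMG00280, ATMG00980, ATMG00990 and ATMG01110 passed. For ATMG00110, ATMG00516, ATMG00670, ATMG00690 and ATMG01120, which have none, only the total was changed by the summing. The share of all genes called in this setting is not given here. The other 5 were ATMG00970 (0.99), ATMG01000 (0.59), ATMG00900 (0.49), ATMG00610 (-0.53) and ATMG01010 (-0.74). This setting was chosen after seeing the data.

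**Figure D5:**
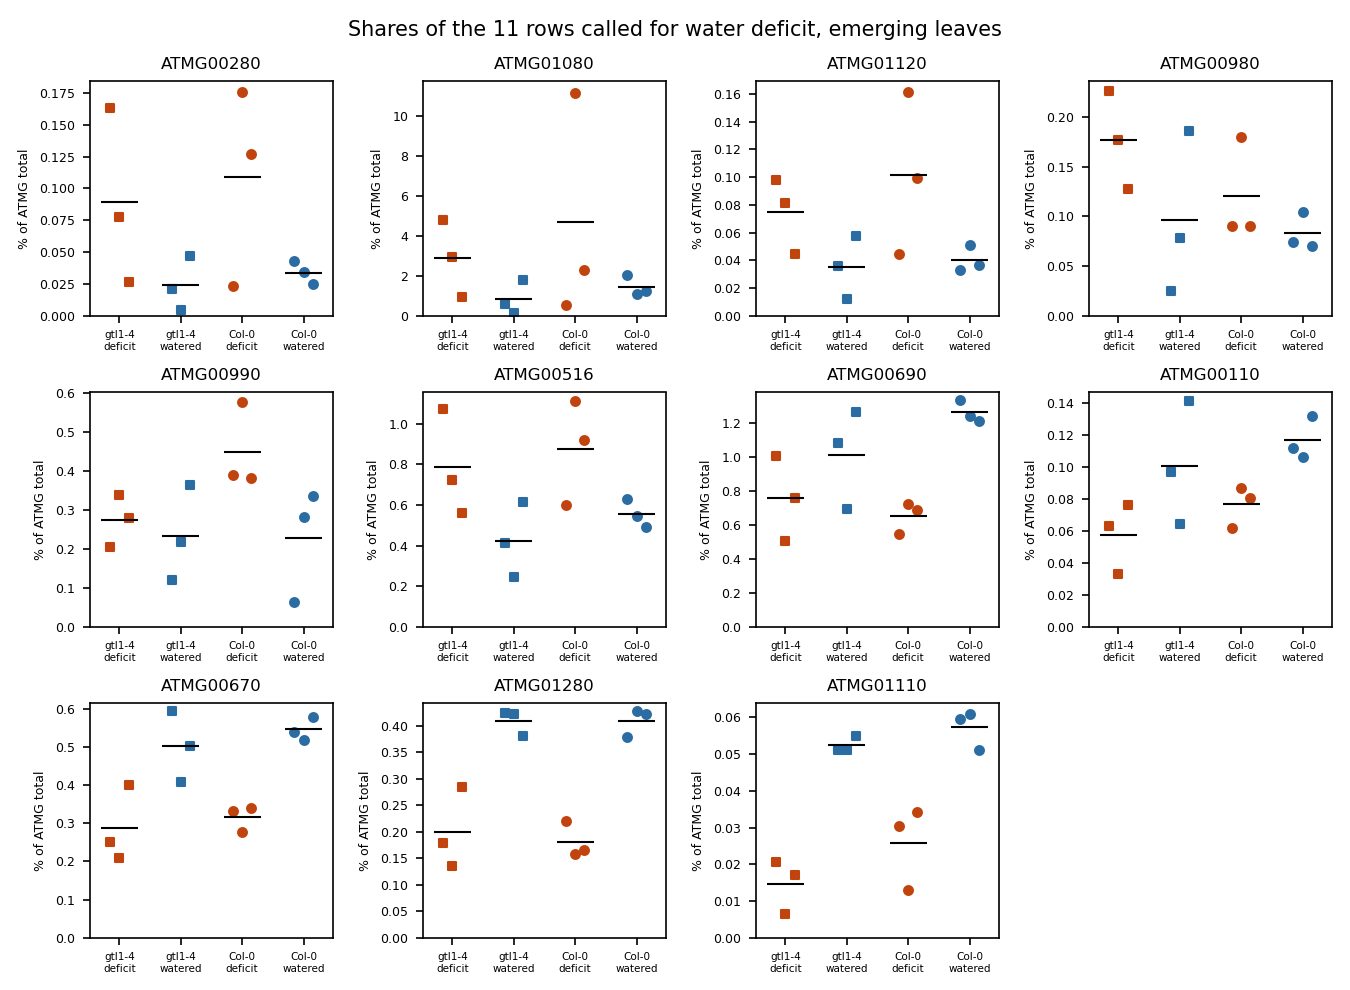
Share of the mitochondrial total (percent) in each of the 12 emerging libraries for the 11 genes that passed for water deficit. Squares are gtl1-4 and circles Col-0, orange under deficit and blue well-watered, and lines are means of 3 libraries. Deficit and well-watered libraries do not overlap for ATMG00670, ATMG01280 and ATMG01110, and they overlap in at least 1 genotype for the other 8.

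In expanding leaves no share passed for water supply, against 6.6% of all 16522 genes in the same limma fit. An unadjusted p under 0.05 was found for 7 of 54, against 3277 of the 16522, and the lowest adjusted p was 0.116. The 6.6% and the 3277 too hold the shift of the total, with a median log2 difference of 0.20 over all genes and -0.08 over the 54. The genes that fell in emerging leaves did not pass here. ATMG01280 had 0.210, 0.188 and 0.135% in gtl1-4 under deficit, 0.126, 0.240 and 0.145% in Col-0 under deficit, 0.152, 0.245 and 0.273% in well-watered gtl1-4, and 0.137, 0.330 and 0.0921% in well-watered Col-0. These libraries overlapped throughout. Whether the responses at the 2 ages differ was not tested.

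Genotype and its interaction with water supply gave no call on shares. For genotype, 0.508% of all genes passed in expanding and 0.281% in emerging leaves, and no mitochondrial gene did. By limma with an unadjusted p under 0.05 there were 5 of 54 in expanding leaves (lowest adjusted p 0.114, for ATMG00660) and 0 of 73 in emerging leaves. Over all genes there were 789 of 16522 and 356 of 18529. For the interaction, 0% of all genes passed at either age. Its unadjusted limma p was under 0.05 for 5 mitochondrial genes in expanding and 2 in emerging leaves, against 691 and 226 of all genes.

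The levels of the genes, as normalized counts tested within each genotype, gave few calls. In emerging leaves of gtl1-4, 6 of 73 genes passed for water deficit, 3 higher and 3 lower, against 8.87% of all genes tested. In Col-0 4 of 73 passed, 1 higher and 3 lower, against 13.2%. The median log2 fold change over the 73 genes was 0.23 in gtl1-4 and 0.24 in Col-0, against 0.00 over all genes in both. At an unadjusted p under 0.05 there were 10 higher and 4 lower in gtl1-4 and 12 higher and 4 lower in Col-0. Both directions together, this was 14 and 16 of 73, against 4536 and 5138 of all 18529 genes. ATMG01280 and ATMG00670 were called in both genotypes.

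ATMG01280 had 315, 345 and 454 normalized counts in gtl1-4 under deficit against 655, 883 and 572 in well-watered gtl1-4, a fall by 0.91 (SE 0.17, adjusted p 0.00375). In Col-0 it had 359, 306 and 388 under deficit against 629, 675 and 718 when well-watered, a fall by 0.94 (SE 0.17, adjusted p 0.00216). The groups did not overlap in either genotype. Summed with AT2G07695 the differences were 0.17 in gtl1-4 (adjusted p 0.590) and 0.18 in Col-0 (adjusted p 0.551), and neither passed.

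ATMG01110 had 36.3, 16.5 and 27.1 normalized counts in gtl1-4 under deficit against 79.1, 107 and 82.4 when well-watered, a fall by 1.76 (SE 0.39, adjusted p 0.0112). It was lost without well-watered gtl1-4 replicate 2 (adjusted p 0.0538), and summed with AT2G07749 the difference was -0.39 (adjusted p 0.217). Its relative AT2G07749 was at -0.09 in gtl1-4 (adjusted p 0.846) and fell by 1.02 in Col-0 (adjusted p 0.00755). The interaction for AT2G07749 did not pass (adjusted p 0.889).

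ATMG00670 had 439, 532 and 636 in gtl1-4 under deficit against 916, 852 and 755 when well-watered, a fall by 0.66 (SE 0.16, adjusted p 0.0205). In Col-0 it had 542, 537 and 791 under deficit against 895, 819 and 982 when well-watered, a fall by 0.55 (SE 0.16, adjusted p 0.0381). Neither genotype overlapped. The call in Col-0 was lost without any well-watered Col-0 replicate or Col-0 deficit replicate 1 or 2, with adjusted p up to 0.147.

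ATMG01170, a gene without a name, was the highest gene called, with 8792, 8710 and 9764 in Col-0 under deficit against 6250, 6582 and 6735 when well-watered. It rose by 0.48 (SE 0.12, adjusted p 0.0171), which was lost without well-watered Col-0 replicate 1 or 2 or Col-0 deficit replicate 3, with adjusted p up to 0.0728. ATMG00690 had 891, 1396 and 1599 in Col-0 under deficit against 2218, 1957 and 2054 when well-watered, a fall by 0.72 (SE 0.19, adjusted p 0.0191). It was lost without well-watered Col-0 replicate 1 or 3 or Col-0 deficit replicate 1, with adjusted p up to 0.0888. Both genes were apart in their groups.

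In gtl1-4, ATMG00210, ribosomal protein L5, had 377, 905 and 309 under deficit against 78.2, 107 and 213 when well-watered. It rose by 1.95 (SE 0.59, adjusted p 0.0493), and by 0.33 (adjusted p 0.429) when summed with AT2G07725. The call was lost in 7 of 12 fits without 1 library, those without any well-watered Col-0 replicate, well-watered gtl1-4 replicate 1 or 2, or gtl1-4 deficit replicate 1 or 2, with adjusted p up to 0.187. ATMG01000 had 713, 632 and 379 under deficit against 283, 274 and 345 when well-watered, a rise by 0.89 (SE 0.24, adjusted p 0.0310), and ATMG00516 had 1883, 1829.8 and 894 against 636, 510.3 and 923, a rise by 1.12 (SE 0.31, adjusted p 0.0344). The groups did not overlap for ATMG00210 and ATMG01000, while the third deficit library of ATMG00516 lay under its highest well-watered one. The calls of ATMG01000 and ATMG00516 were also lost with a replicate block (adjusted p 0.0533 and 0.0596) and in a fit of only the 2 groups (0.0516 for both). Both of these, and ATMG00670 in gtl1-4, were lost without well-watered gtl1-4 replicate 1 or 2 or gtl1-4 deficit replicate 1 or 2, with adjusted p up to 0.131. Over these fits the number of calls in gtl1-4 ran from 1, without well-watered replicate 2, to 14, without deficit replicate 3.

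In expanding leaves, 1 of 54 genes passed for water deficit in Col-0, against 13.5% of all genes tested. An unadjusted limma p under 0.05 was found for 14, 2 higher and 12 lower, against 4675 of all 16522 genes. The median log2 fold change of the 54 genes was -0.33, against 0.02 over all genes. The gene called was ATMG00110, with 9.24, 7.38 and 13.9 normalized counts under deficit against 32.3, 29.8 and 23.5 when well-watered, a fall by 1.43 (SE 0.41, adjusted p 0.0311) in groups that did not overlap. It was lost without well-watered Col-0 replicate 1 or 2 or Col-0 deficit replicate 1 or 2, with adjusted p up to 0.0995. In gtl1-4 none of 54 passed, against 4.76% of all genes, and the median log2 fold change was 0.03. There 4 had an unadjusted limma p under 0.05, against 2677 of all 16522 genes.

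Between genotypes, ATMG00660 passed in well-watered expanding leaves, where 1.34% of all genes did. It had 92.1, 97.4 and 72.6 normalized counts in gtl1-4 against 35.4, 45.3 and 38.3 in Col-0, a rise by 1.12 (SE 0.25, adjusted p 0.0399) in groups that did not overlap. The call was lost without well-watered Col-0 replicate 1 or 3, any well-watered gtl1-4 replicate, or gtl1-4 deficit replicate 1 or 2, with adjusted p up to 0.142, and in 6 of 10 other settings. Under deficit it had 49.0, 59.2 and 79.2 in gtl1-4 against 27.7, 31.98 and 45.0 in Col-0. No mitochondrial gene passed for genotype under deficit in expanding leaves, where 0.169% of all genes did, or in emerging leaves, where 0.162% of all genes passed when well-watered and 0.183% under deficit. By limma these had 1, 2 and 3 genes at an unadjusted p under 0.05, against 1099 of all 16522, 1276 of all 18529 and 1056 of all 18529. The interaction gave 0% of all genes and no mitochondrial gene at either age. Its unadjusted limma p was under 0.05 for 4 mitochondrial genes in expanding and 2 in emerging leaves, against 948 and 987 of all genes.

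Nuclear genes whose proteins work in the mitochondrion gave calls in the same emerging leaves. Of 7 genes for alternative respiration, enzymes that let electrons bypass the proton-pumping complexes, 4 were tested, and 2 rose with deficit in each genotype of emerging leaves and in Col-0 of expanding leaves. Over all genes tested, 4.98% were called higher in emerging gtl1-4, 6.48% in emerging Col-0 and 6.18% in expanding Col-0. AOX1A, the alternative oxidase, had 365 ± 59.1 normalized counts under deficit and 130.4 ± 12.02 when well-watered in emerging gtl1-4 (log2 fold change 1.47, adjusted p 0.000109), and 353 ± 47.8 and 145 ± 18.7 in emerging Col-0 (1.28, adjusted p 0.000312; SD of 3 libraries here and below). NDB2, a NAD(P)H dehydrogenase on the outer face of the inner membrane, had 339 ± 22.5 and 152 ± 25.4 in emerging gtl1-4 (1.17, adjusted p 0.000495) and 294 ± 27.1 and 160.2 ± 17.1 in emerging Col-0 (0.87, adjusted p 0.00322). In expanding Col-0 NDB2 had 182 ± 14.9 and 91.9 ± 11.1 (0.98, adjusted p 0.00210), and NDA2, another dehydrogenase of this family, rose by 0.90 (adjusted p 0.0474). None of the 4 passed in expanding gtl1-4, where 3 had an unadjusted limma p under 0.05, against 2677 of all 16522 genes.

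Nuclear subunits of the standard chain that passed were all lower, in numbers to be read against the 3.90% of all genes called lower in emerging gtl1-4, 6.69% in emerging Col-0 and 7.32% in expanding Col-0. A single call in a list of 4 to 12 genes is near these shares. Of 9 genes for complex III and cytochrome c, 3 fell in emerging Col-0, among them CYTC-1, for cytochrome c, by 0.52 and AT5G13430, the iron-sulfur subunit, by 0.45. In emerging gtl1-4 AT5G13430 alone fell, by 0.30 (adjusted p 0.0460). In emerging Col-0, 1 of 4 genes of complex IV (AT1G80230, -0.40) and 1 of 8 of complex V (ATP3, the gamma subunit, -0.28) passed by limma. None of 12 of complex I passed there, and 4 of them had an unadjusted p under 0.05, against 5138 of all 18529 genes. In expanding Col-0, 1 of 12 genes of complex I (AT4G02580, the 24 kDa subunit, -0.47), 1 of 9 of complex III and cytochrome c (AT1G51980, -0.51) and 1 of 8 of complex V (AT5G47030, -0.41) fell. Of 6 genes for gene expression in the organelle, AT5G14580, a polyribonucleotide nucleotidyltransferase, fell in emerging Col-0 by 0.66, and of 4 for upkeep of its DNA, MSH1, a mismatch repair homolog, fell by 0.57. None of these genes passed for genotype or the interaction at either age, and the lists were put together with earlier results of these data known.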

How the data were processed

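Per the submitters' processing notes, the tools were STAR and RSEM on the TAIR10 build, after bcl2fastq, Trim Galore, Trimmomatic and FastQC; no versions were named. The deposited values are a signal, normalized counts per gene that the authors gave in 1 table per leaf age, and no source used here states how they were normalized. Total depth was recovered from the smallest step of each library. Here limma 3.58.1 in R 4.3.3 was fitted to log2(value + 1) of every gene whose mean in a table reached 10, with group means, contrasts and a variance trend, and p-values were adjusted after Benjamini and Hochberg (0.05). For shares, each library was first divided by its mitochondrial total. Total shares were compared by exact permutation tests within strata. Python 3.11.15, matplotlib 3.10.9 and blastn 2.17.0 were also used. Of 37336 identifiers, 37051 matched the TAIR10.1 reference tables, and none of the ATMG identifiers did. Names of mitochondrial genes come from notes on nuclear genes.

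The named genes are the 12 with the highest mean share at either age, ATMG00020, ATMG01380 and ATMG01390, up to 6 called genes per direction and comparison, and up to 3 called genes per nuclear list and direction. Others, such as ATMG00090 and ATMG00290 between leaf ages and the nuclear relatives, were named after their values were seen. Members and lists were chosen with earlier results of these data known. The fits were tested on simulated data. Alternatives were other pseudocounts, filters, scalings, variance trends, sets of groups and a replicate block, and each library left out in turn.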

Additional observations from a re-analysis of the deposited data

Results flagged for a closer look

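For ATMG00040 the mean share in the mitochondrial total was higher under deficit in expanding leaves of Col-0 and lower under deficit in emerging leaves of Col-0. In expanding leaves it was 0.155, 0.248 and 0.152% under deficit and 0.128, 0.0645 and 0.0324% when well-watered. In emerging leaves it was 0.146, 0.132 and 0.143% under deficit and 0.213, 0.182 and 0.169% when well-watered. The mean log2 ratios were 1.302 in expanding and -0.42 in emerging leaves, 1.73 apart. In gtl1-4 the libraries overlapped, at 0.159, 0.0970 and 0.233% under deficit and 0.250, 0.0677 and 0.116% when well-watered in expanding leaves. Over both genotypes the share did not pass for water supply at either age (limma, adjusted p 0.116 in expanding and 0.296 in emerging leaves).

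ATMG00560, named for an OB-fold-like domain that binds nucleic acids, had means that differed in the same directions in Col-0. In expanding leaves it held 1.501, 2.47 and 1.35% under deficit and 1.10, 0.986 and 0.931% when well-watered. In emerging leaves it held 1.82, 1.55 and 1.99% under deficit and 2.02, 2.17 and 2.41% when well-watered. The mean log2 ratios were 0.82 in expanding and -0.30 in emerging leaves, 1.12 apart. In gtl1-4 the libraries overlapped, at 1.44, 1.29 and 1.82% under deficit and 2.14, 0.913 and 1.15% when well-watered in expanding leaves. This share did not pass at either age (limma, adjusted p 0.1999 in expanding and 0.128 in emerging leaves). For both genes every deficit library of Col-0 lay on one side of every well-watered one at each age, and the difference between ages was not tested.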

How the results depend on the processing

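Counts below are of mitochondrial genes called, out of 54 tested in expanding and 73 in emerging leaves. A minimum mean of 50 left fewer genes to test, and summing relatives brought in more, such as ATMG00590 in emerging leaves. The cause of each change was not tested. In expanding leaves, the 1 call for water deficit in Col-0 became 2 with a pseudocount of 5, with a replicate block and when scaled to nuclear genes, and, among these 54, 0 with no filter or a fit of only these 2 groups. With no filter ATMG00500, which is under the minimum in expanding leaves, passed (2.78, adjusted p 0.0299). The 1 call for genotype when well-watered became 0 with no filter, a minimum mean of 50, no variance trend, a replicate block, nuclear scaling and a fit of 2 groups. On shares, genotype gave 1 call with a minimum of 50 and 1 with nuclear relatives summed, and water supply gave 1 with a minimum of 50, 1 with no variance trend and 2 with relatives summed, against 0 for each.

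In emerging leaves, the 4 calls for deficit in Col-0 became 1 with no variance trend, 7 with nuclear scaling, 11 in a fit of 2 groups and 8 with relatives summed. The 6 in gtl1-4 became 3 with no filter, 2 with no variance trend and 3 with relatives summed. The 11 shares became 5 with no filter and 3 with no variance trend. The interaction on shares gave 1 with a replicate block, against 0. With relatives summed, ATMG01280 turned to 0.17 in gtl1-4, 0.18 in Col-0 and 0.071 as a share, and ATMG01080 to -0.11.

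The genotype difference in total share turned to -0.078 in expanding leaves outside the chloroplast genes and -0.098 also without ribosomal RNA, and in emerging leaves to -0.012 in the second setting and -0.013 without ATMG00020, ATMG01380 and ATMG01390. In emerging leaves the water difference was 0.23 in the second setting (p 0.05, adjusted p 0.2, exact permutation test). Without the 3 genes just named it was 0.20 (p 0.045, adjusted p 0.18, same exact test). With the insertion added it was 0.10 (p 0.155, adjusted p 0.62, same exact test). The ratio between leaf ages moved to 0.833 outside the chloroplast genes and to 0.767 with the insertion added as well. The settings with relatives, and those between leaf ages, were chosen after seeing the data.

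Without 1 library, calls ran from 0 to 5 for deficit in Col-0 and 0 to 2 for genotype when well-watered in expanding leaves, 1 to 5 for deficit in Col-0 and 1 to 14 in gtl1-4 in emerging leaves. On shares they ran from 8 to 15 for water supply and 0 to 1 for the interaction in emerging leaves, and 0 to 2 for water supply and 0 to 1 for genotype in expanding leaves. The log2 difference in total share ran from -0.31 to -0.0095 (water, expanding), 0.12 to 0.29 (water, emerging), -0.032 to 0.26 (genotype, expanding) and -0.057 to 0.11 (genotype, emerging). The genotype difference turned without gtl1-4 deficit replicate 2 (-0.0079 in expanding, -0.057 in emerging leaves), well-watered gtl1-4 replicate 2 (-0.015 and -0.016), Col-0 deficit replicate 2 in expanding leaves (-0.032) and Col-0 deficit replicate 1 in emerging leaves (-0.015).

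Whether replicate numbers pair the libraries is not known. Correlations of same-numbered libraries ran from -0.161 to 0.133 in expanding and from -0.283 to 0.2 in emerging leaves. Those of differently numbered libraries ran from -0.198 to 0.227 and from -0.205 to 0.327. These are not correlations of the levels themselves, which differed far more between genes than between libraries. In emerging leaves 3 of 18 same-numbered pairs were over 0.1, with a median of -0.027. Such low correlations give no sign of pairing but cannot show that there is none. The highest shares of ATMG00020 lay in replicate 2 at both ages, while Col-0 deficit replicate 2 had the lowest of expanding leaves, 2.97%. Whether this bears on pairing was not tested. With the replicate block, the water difference in total share in emerging leaves was 0.22 (adjusted p 0.25). Low counts limit the rarer genes, and reads shared with the insertion limit every gene that has a relative there.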
